A study of Mus musculus with 18 samples.

Results

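The aryl hydrocarbon receptor gene Ahr and 9 direct targets of the receptor were followed in mouse natural killer (NK) cells held in low oxygen. The members are Ahr, Ahrr, Tiparp, Cyp1a1, Cyp1b1, Nqo1, Asb2, Hic1, Selenbp1 and Scin, taken by symbol from the 56953 gene identifiers of the count tables. All 10 were matched to an identifier, and all 10 were among the 16743 genes that passed the filter on low counts. Their identifiers are ENSMUSG00000019256 (Ahr), ENSMUSG00000021575 (Ahrr), ENSMUSG00000034640 (Tiparp), ENSMUSG00000032315 (Cyp1a1), ENSMUSG00000024087 (Cyp1b1), ENSMUSG00000003849 (Nqo1), ENSMUSG00000021200 (Asb2), ENSMUSG00000043099 (Hic1), ENSMUSG00000068874 (Selenbp1) and ENSMUSG00000002565 (Scin). Each is a protein-coding gene; Ahr, Scin and Asb2 lie on chromosome 12, Tiparp and Selenbp1 on chromosome 3, and the other 5 on chromosomes 13, 9, 17, 8 and 11 (Ahrr, Cyp1a1, Cyp1b1, Nqo1 and Hic1 in that order).

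Splenic NK cells spent 7 days in culture in 1% oxygen and human interleukin 2 (1700 U/ml), and their mRNA was sequenced with a strand-specific protocol. There were 6 groups of 3 libraries, called biological replicates in the labels. Hif1a KO cells (Ncr1 iCre, Hif1a fl/fl) stand beside Hif1a flox cells (Hif1a fl/fl), Ahr KO cells (Ncr1 iCre, Ahr fl/fl) beside Ahr flox cells, and Hif1a Ahr KO cells (Hif1a fl/fl and Ahr fl/fl with Ncr1 iCre) beside Hif1a Ahr flox cells. The labels of the Ahr flox and Hif1a Ahr flox samples write the Ahr genotype as fl/f, and the series' design writes it as fl/fl. All 6 groups thus carry loxP-flanked alleles, and all were grown in hypoxia; no group was kept at normal oxygen. Cre was driven by the Ncr1 locus, by the name of the allele, and Ncr1 encodes the NK receptor NKp46. No group carried Cre alone, so Cre and the deletion cannot be told apart as sources of a change. Age and sex of the mice are not given in the sources used here.

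AhR waits in the cytoplasm in a chaperone complex until a ligand binds, then enters the nucleus, pairs with Arnt and binds DNA elements built around the core GCGTG. Arnt is also the partner of HIF-1 alpha, the oxygen-regulated protein that Hif1a encodes. Among the targets, Ahrr and Tiparp encode inhibitors of the receptor itself, Cyp1a1 and Cyp1b1 encode cytochrome P450 enzymes that oxidise its ligands, and Nqo1 encodes a quinone reductase that the oxidative stress factor NRF2 (gene Nfe2l2) also controls. Asb2 encodes a subunit of a ubiquitin ligase, Hic1 a transcriptional repressor, Selenbp1 a selenium-binding protein with methanethiol oxidase activity, and Scin the actin-severing protein scinderin.

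The 250 bases before the annotated start are printed for 4 targets that show the range of the response described further on: Ahrr and Hic1, whose windows hold the longer AhR core, and Asb2 and Nqo1, whose windows hold neither core. Capitals mark TNGCGTG and GCGTG read on either strand. The windows are RefSeq sequences of GRCm38.p6, an older build than the GRCm39 of the counts, and run 5′ to 3′ on the gene's strand (minus for all 4).
Ahrr, chr13:74292332-74292581: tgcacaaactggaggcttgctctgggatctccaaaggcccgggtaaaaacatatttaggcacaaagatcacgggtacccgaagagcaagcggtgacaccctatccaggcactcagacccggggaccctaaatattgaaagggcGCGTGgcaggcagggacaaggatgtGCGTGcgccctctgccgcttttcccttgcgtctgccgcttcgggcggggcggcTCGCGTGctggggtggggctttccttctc
Hic1, chr11:75170256-75170505: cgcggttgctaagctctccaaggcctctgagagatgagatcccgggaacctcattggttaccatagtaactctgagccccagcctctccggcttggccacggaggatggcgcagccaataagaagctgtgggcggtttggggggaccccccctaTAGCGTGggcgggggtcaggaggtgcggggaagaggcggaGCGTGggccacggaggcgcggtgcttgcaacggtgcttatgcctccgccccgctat
Asb2, chr12:103356002-103356251: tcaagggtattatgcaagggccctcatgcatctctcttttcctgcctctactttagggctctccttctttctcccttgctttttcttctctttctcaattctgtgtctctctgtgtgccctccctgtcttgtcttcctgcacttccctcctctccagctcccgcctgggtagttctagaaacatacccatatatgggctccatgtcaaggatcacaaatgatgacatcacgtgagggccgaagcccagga
Nqo1, chr8:107403206-107403455: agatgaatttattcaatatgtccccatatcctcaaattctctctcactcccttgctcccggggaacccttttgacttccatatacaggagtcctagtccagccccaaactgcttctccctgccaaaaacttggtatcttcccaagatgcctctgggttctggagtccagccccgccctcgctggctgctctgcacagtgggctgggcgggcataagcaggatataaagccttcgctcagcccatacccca

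Such windows were at hand for 9 of the 10 members, Ahr being the one without. TNGCGTG occurred in the windows of 2 of the 9, Ahrr and Hic1, against 4.76% of the 27025 genes with a window. GCGTG, which TNGCGTG contains and which is also a form of the hypoxia response element, occurred in 7 of 9 against 30.9% of genes. There were 3 copies in the Ahrr window, 2 each in Hic1 (first window) and Selenbp1, and 1 each in Tiparp, Cyp1a1, Cyp1b1 and Scin. The other hypoxia core, ACGTG, occurred in Asb2 and Selenbp1, 2 of 9 against 18.5% of genes. The antioxidant core TGACNNNGC, which NRF2 binds, occurred in 0 of 9 against 11.5% of genes. Both strands were searched, and a missing match says only that these letters are not within this window.

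Library totals ran from 54420649 to 55732940 estimated counts, and 24103 to 25669 genes were above 0. Levels are given as CPM, counts relative to library size, scaled with TMM factors, and differences as log2 changes with their standard error (SE) from edgeR's quasi-likelihood test. A gene was called at a Benjamini-Hochberg adjusted p under 0.05 over all 16743 genes. Where genes of a list are counted, rose and fell mean called higher and called lower. Summed over 9 markers, NK transcripts held 12564 to 14371 CPM in Hif1a KO against 18372.5 to 22417 in Hif1a flox libraries. The sum was 22761 to 27129 in Ahr KO against 16775 to 23136 in Ahr flox libraries. It was 16669 to 17829 in Hif1a Ahr KO against 16851 to 21474 in Hif1a Ahr flox libraries. The markers split in Hif1a KO cells. There 3 were called higher (Ncr1 0.92, Klrk1 0.73, Klrd1 0.41) and 4 lower (Prf1 -2.32, Eomes -0.60, Gzmb -0.49, Tyrobp -0.41), against 17.6% and 17.8% of all genes. In Ahr KO cells edgeR called 2 of the 9 higher, against 2.13% of all genes. Neither edgeR nor DESeq2 called any lower there (2 at an unadjusted p under 0.05). In Hif1a Ahr KO cells edgeR called 3 higher (median log2 change 0.06), against 14.8% of all genes. Neither tool called any lower there (0 at an unadjusted p under 0.05). Transcripts of the HIF targets on a check list fell in 8 of 8 genes in Hif1a KO and in 8 of 8 in Hif1a Ahr KO cells. Of all genes, 17.8% and 16.5% fell in these comparisons. In Ahr KO cells 0 of 8 were called by edgeR or DESeq2, with 1 at an unadjusted p under 0.05. Gene-level Hif1a counts rose by 1.58 ± 0.11 in Hif1a KO and 1.68 ± 0.11 in Hif1a Ahr KO cells. Such counts can include transcripts that lack the deleted exon and so check nothing about the deletion.

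**Figure D1:**
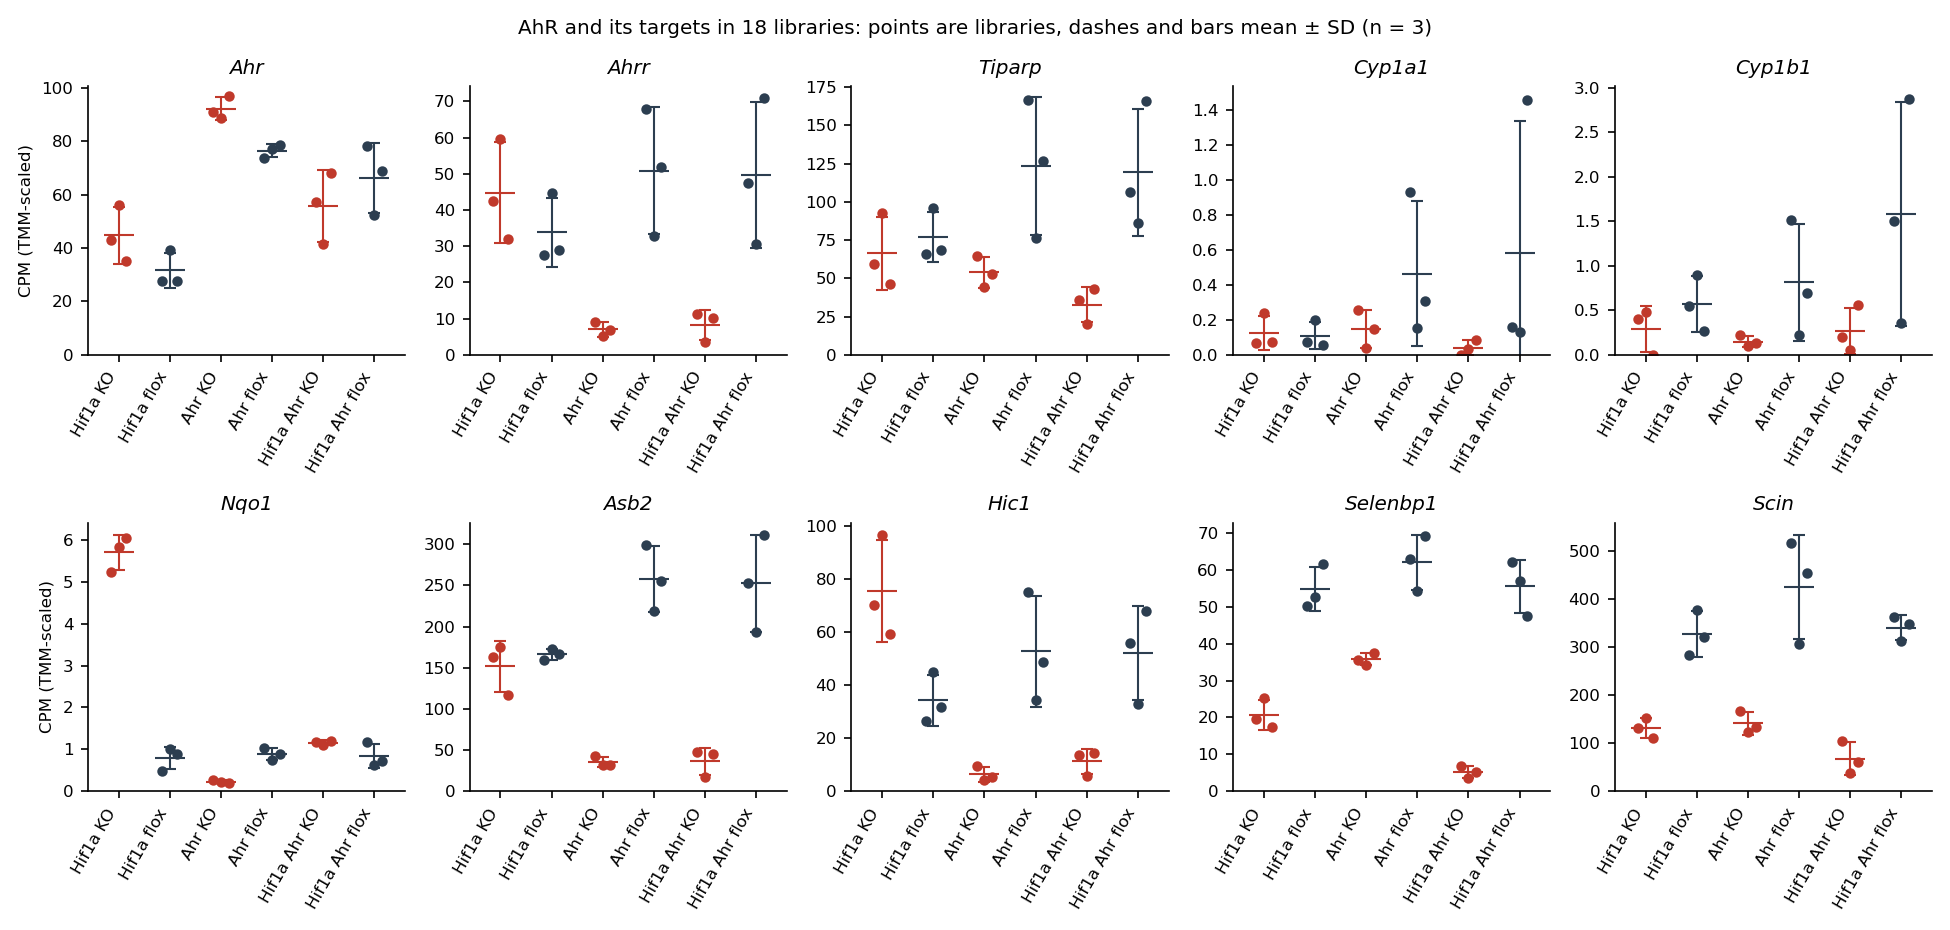
Each panel plots one member's TMM-scaled CPM on a linear axis from 0, for the 3 libraries of each group (points) with their mean (dash) and SD (bar), KO left of the flox group of its line. Ahrr, Asb2 and Hic1 stood low in the Ahr KO and Hif1a Ahr KO groups, while Nqo1 stood highest in Hif1a KO, at 5.24 to 6.04 CPM.

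The receptor's own transcript was not called in any KO comparison. Ahr stood at 90.7, 88.6 and 97.0 CPM in Ahr KO libraries, against 73.8, 77.0 and 78.5 CPM in Ahr flox libraries. The 3 Ahr KO values all lay above the 3 Ahr flox values, but the log2 change of 0.27 ± 0.20 was not called (adjusted p = 0.515). As for Hif1a, a gene-level Ahr count can include transcripts without the deleted exon, so it does not check the deletion. With same-numbered libraries as pairs the change was called (0.27; adjusted p = 0.0339), and it was also called when only the 6 libraries of the line were fitted (adjusted p = 0.0136). In Hif1a KO cells Ahr stood at 42.8, 56.0 and 35.2 CPM, against 27.7, 39.3 and 27.7 CPM in Hif1a flox cells, with overlap (0.50 ± 0.205; adjusted p = 0.0729). That change was called higher with pairs (adjusted p = 2.38e-04), by DESeq2 (0.0232), without Hif1a KO replicate 3 (0.0324) and without Hif1a flox replicate 2 (0.0251). In Hif1a Ahr KO cells Ahr stood at 57.0, 41.4 and 68.2 CPM, against 78.0, 52.2 and 68.8 CPM in Hif1a Ahr flox cells, again with overlap (-0.26 ± 0.20; adjusted p = 0.375).

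Ahr also differed between lines that both lacked Cre. Hif1a flox libraries held 27.7 to 39.3 CPM of Ahr, below all 3 Ahr flox libraries at 73.8 to 78.5 CPM, a separation that 7.15% of all genes showed in that direction. The log2 difference of Hif1a flox over Ahr flox was -1.28 ± 0.21 (adjusted p = 0.0135). Ahr was the 1 member of 10 called lower there, where 0.0896% of all genes were. Leaving out Hif1a flox replicate 1 (0.107) or 3 (0.0998), or Ahr flox replicate 1 (0.0646), 2 (0.0592) or 3 (0.0587), ended that call. Between Hif1a Ahr flox and Hif1a flox cells the Ahr difference was 1.07 ± 0.205 (adjusted p = 0.202; DESeq2 adjusted p = 3.38e-05), with all Hif1a Ahr flox values above all Hif1a flox values, as for 3.79% of all genes. In that contrast edgeR called 0 of 10 members (2 at an unadjusted p under 0.05), against 0.0239% of all genes, and DESeq2 called 1. Between Hif1a Ahr flox and Ahr flox cells neither tool called a member, against 0.185% of all genes by edgeR, and 0 of 10 had an unadjusted p under 0.05. Whether the flox lines differ in background or in preparation was not tested.

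In Ahr KO cells 6 of the 9 targets were called lower. Tiparp, Cyp1a1 and Cyp1b1 had negative changes too but were not called. These 6 of the 10 members called lower by edgeR stand against 4.78% of all genes tested, and the median log2 change of the members was -1.78 against 0.00 over all genes. Members were picked with earlier results of these data known, so such shares, here and further on, are not independent of that choice. None was called higher by edgeR or DESeq2, against 2.13% of all genes by edgeR, and 0 had a positive change at an unadjusted p under 0.05. Of all 16743 genes ordered from the lowest log2 change, Hic1 stood at place 14, Asb2 at 20, Ahrr at 21 and Selenbp1 at 717. All 3 Ahr KO values lay below all 3 Ahr flox values for 8 of the members, against 15.3% of all genes. The reverse held for 1 member, Ahr, against 13.8% of all genes.

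Of the receptor's inhibitors, Ahrr stood at 9.18, 5.17 and 6.86 CPM in Ahr KO libraries, against 67.8, 32.8 and 52.0 CPM in Ahr flox libraries. The groups were far apart, with the highest KO value well under the lowest flox value, and the log2 change was -2.85 ± 0.47 (adjusted p = 0.00297). Tiparp, a mono-ADP-ribosyltransferase that acts on the receptor, stood at 64.5, 44.5 and 53.1 CPM in Ahr KO, against 166, 76.3 and 127 CPM in Ahr flox cells. Its groups did not overlap either, yet the spread of the flox libraries was wide and the change of -1.19 ± 0.37 was not called (adjusted p = 0.0759). Tiparp was called lower with pairs (-1.14; adjusted p = 6.05e-04), by DESeq2 (0.0163) and without Ahr flox replicate 2 (0.0362).

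Of the enzymes Nqo1 was called and the P450 genes were not. Nqo1 stood at 0.275, 0.213 and 0.207 CPM in Ahr KO, against 1.04, 0.741 and 0.891 CPM in Ahr flox cells, and fell by 1.93 ± 0.29 on the log2 scale (adjusted p = 6.09e-04). Cyp1a1, the gene most often used as a readout of the receptor, had 14, 2 and 8 estimated counts in Ahr KO and 54, 8 and 17 in Ahr flox libraries. Those groups overlapped, and the change of -1.63 ± 0.98 was not called (adjusted p = 0.390). Cyp1b1 had 12, 5 and 7 estimated counts in Ahr KO and 88, 12 and 38 in Ahr flox libraries, with a change of -2.43 ± 1.08 (adjusted p = 0.222). Both P450 genes were called lower with pairs (Cyp1a1 -1.59, adjusted p = 0.0154; Cyp1b1 -2.34, adjusted p = 0.0049). Their libraries were widely spread within a group, the Ahr flox counts above all.

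The remaining targets were all called lower in Ahr KO cells. Asb2 stood at 43.1, 31.5 and 32.3 CPM in Ahr KO, against 299, 219 and 255 CPM in Ahr flox cells, a log2 change of -2.85 ± 0.32 (adjusted p = 1.81e-04). Hic1 stood at 9.66, 4.10 and 5.36 CPM in Ahr KO, against 75.3, 34.3 and 48.7 CPM in Ahr flox cells, the largest log2 fall of the 10 (-3.05 ± 0.46; adjusted p = 0.00174). Scin stood at 167, 123 and 133 CPM in Ahr KO, against 517, 305 and 453 CPM in Ahr flox cells (-1.59 ± 0.30; adjusted p = 0.00644). For these 3 genes the lowest flox library was far above the highest KO library. Selenbp1 moved least, with 35.5, 34.3 and 37.5 CPM in Ahr KO against 62.8, 54.3 and 69.1 CPM in Ahr flox cells (-0.80 ± 0.17; adjusted p = 0.0123). Its call was lost without Ahr KO replicate 2 (0.0632) or Ahr flox replicate 1 (0.0528) or 3 (0.0626). Selenbp1 has a close paralog, Selenbp2, which was counted at no more than 0.367 CPM in any library and was not tested; the split of reads between both is uncertain.

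**Figure D2:**
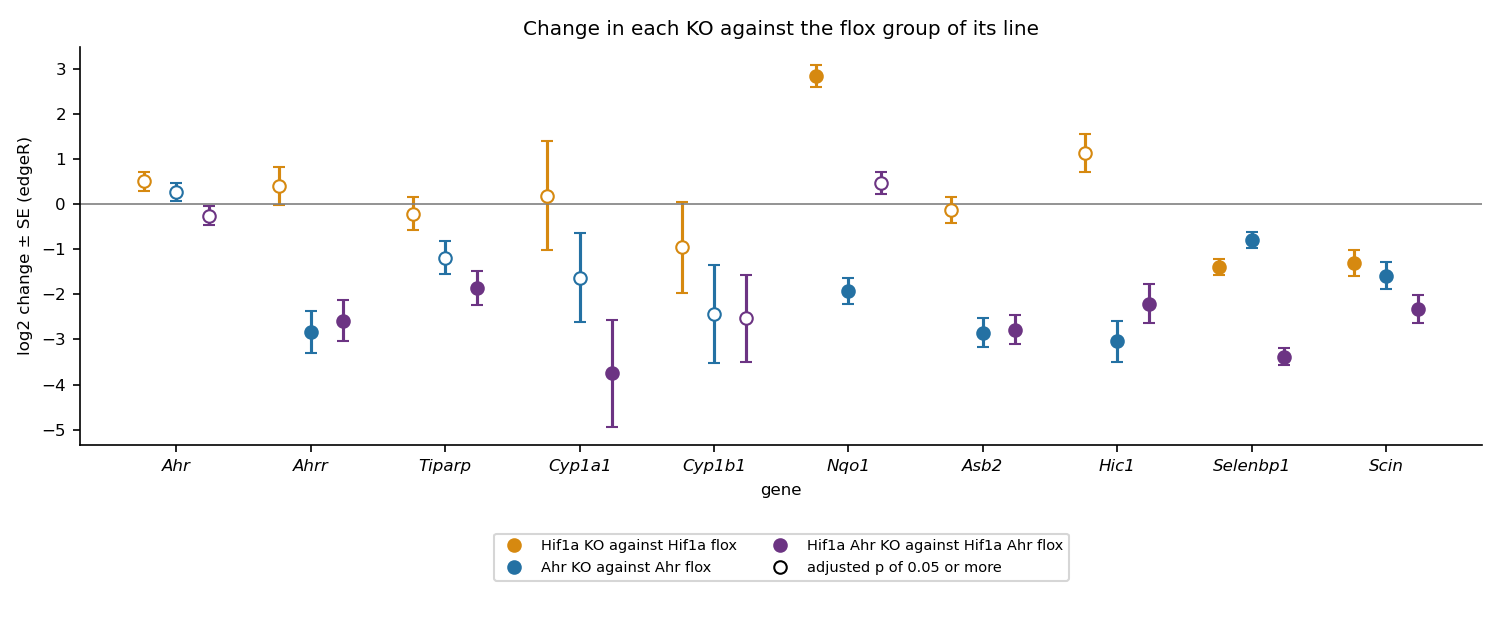
Log2 changes of the 10 members (KO over the flox group of the same line) with bars of 1 SE, in Hif1a KO, Ahr KO and Hif1a Ahr KO cells, filled where called by edgeR. Ahrr, Asb2 and Hic1 lay between -3.05 and -2.21 in both groups with the Ahr deletion, Nqo1 stood at 2.83 in Hif1a KO and -1.93 in Ahr KO, and Selenbp1 and Scin were called lower in all 3 groups.

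In Hif1a KO cells the same targets split. Of the 10 members 1 was called higher, against 17.6% of all genes, and 2 were called lower, against 17.8%, so the members' share lay near that of all genes; their median change was 0.03 against -0.01. Nqo1 was the one called higher. It stood at 5.24, 5.82 and 6.04 CPM in Hif1a KO, against 0.492, 1.01 and 0.888 CPM in Hif1a flox libraries (2.83 ± 0.24; adjusted p = 9.34e-08). Hic1 stood at 70.4, 96.7 and 59.2 CPM in Hif1a KO, against 26.4, 45.0 and 31.8 CPM in Hif1a flox cells. Its groups did not overlap, and the change of 1.13 ± 0.42 lay just past the threshold (adjusted p = 0.05) and was not called. Hic1 was called higher with pairs (1.14; adjusted p = 1.08e-06), by DESeq2 (0.0244), with RLE scaling (0.0486), with only the 6 libraries of the line (0.0276) and without Hif1a flox replicate 2 (0.0481).

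Selenbp1 and Scin were the members called lower in Hif1a KO cells. Selenbp1 stood at 19.6, 25.2 and 17.3 CPM in Hif1a KO, against 50.2, 52.5 and 61.5 CPM in Hif1a flox cells (-1.40 ± 0.18; adjusted p = 2.27e-05). Scin stood at 131, 153 and 112 CPM in Hif1a KO, against 283, 378 and 320 CPM in Hif1a flox cells (-1.31 ± 0.30; adjusted p = 0.00367). In both, every KO library lay below every flox library, a separation that 25.1% of all genes showed; every KO library lay above every flox library for 24.8% of all genes, and for Nqo1 and Hic1. Ahrr and Asb2, which fell in Ahr KO cells, had overlapping groups here. Ahrr stood at 42.6, 59.7 and 32.0 CPM in Hif1a KO, against 27.7, 44.6 and 29.1 CPM in Hif1a flox cells (0.41 ± 0.42; adjusted p = 0.506). Asb2 stood at 163, 175 and 117 CPM in Hif1a KO, against 160, 173 and 166 CPM in Hif1a flox cells (-0.13 ± 0.30; adjusted p = 0.769). Tiparp changed by -0.21 ± 0.37 (adjusted p = 0.697), Cyp1b1 by -0.96 ± 1.00 (adjusted p = 0.503) and Cyp1a1 by 0.19 ± 1.20 (adjusted p = 0.922), the P450 genes on 0 to 50 estimated counts a library.

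In cells with both deletions 7 of the 9 targets were called lower. Nqo1 and Cyp1b1 were not called, although the Cyp1b1 change was -2.54. The fall of Selenbp1 was deeper than with either single deletion (tested further on). In Hif1a Ahr KO cells 7 of 10 members were called lower, against 16.5% of all genes, with a median change of -2.43 against -0.02. None was called higher by edgeR or DESeq2, against 14.8% of all genes by edgeR, and 0 had a positive change at an unadjusted p under 0.05. Ahrr stood at 11.2, 3.53 and 10.1 CPM in Hif1a Ahr KO, against 47.6, 30.6 and 70.9 CPM in Hif1a Ahr flox cells (-2.59 ± 0.46; adjusted p = 8.74e-04). Tiparp stood at 35.6, 20.1 and 42.7 CPM in Hif1a Ahr KO, against 106, 86.0 and 166 CPM in Hif1a Ahr flox cells (-1.86 ± 0.38; adjusted p = 0.00222). Neither inhibitor's groups overlapped, and 7 members in all had every KO value below every flox value, against 19.6% of all genes.

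Asb2 stood at 47.3, 17.7 and 44.8 CPM in Hif1a Ahr KO, against 253, 193 and 311 CPM in Hif1a Ahr flox cells (-2.79 ± 0.32; adjusted p = 2.09e-05). Hic1 stood at 13.5, 5.83 and 14.6 CPM in Hif1a Ahr KO, against 55.9, 33.0 and 68.0 CPM in Hif1a Ahr flox cells (-2.21 ± 0.44; adjusted p = 0.00195). The second KO library was the lowest for both genes. Scin stood at 105, 37.6 and 61.8 CPM in Hif1a Ahr KO, against 362, 312 and 348 CPM in Hif1a Ahr flox cells (-2.32 ± 0.31; adjusted p = 7.32e-05). Selenbp1 stood at 6.90, 3.69 and 5.37 CPM in Hif1a Ahr KO, against 62.0, 56.8 and 47.6 CPM in Hif1a Ahr flox cells (-3.38 ± 0.20; adjusted p = 6.43e-09). For Selenbp1 and Scin the KO libraries were far below the flox libraries.

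Of the enzymes, Nqo1 stood at 1.18, 1.10 and 1.21 CPM in Hif1a Ahr KO, against 1.17, 0.619 and 0.728 CPM in Hif1a Ahr flox cells, with overlap (0.47 ± 0.25; adjusted p = 0.163). Without Hif1a Ahr flox replicate 1, its highest flox library, Nqo1 was called higher (0.79; adjusted p = 0.0272). Cyp1a1 had 0, 2 and 5 estimated counts in Hif1a Ahr KO and 9, 7 and 80 in Hif1a Ahr flox libraries, and was called lower (-3.75 ± 1.18; adjusted p = 0.0251). That call leaned on single libraries: it was lost without Hif1a Ahr KO replicate 1 (0.0723) or 2 (0.0837), and without Hif1a Ahr flox replicate 3 the change was -1.77 (adjusted p = 0.257). It was also lost with no filter on low counts (0.0826). Cyp1b1 had 11, 3 and 32 estimated counts in Hif1a Ahr KO and 84, 19 and 158 in Hif1a Ahr flox libraries, with overlap (-2.54 ± 0.96; adjusted p = 0.0605), and was called lower without Hif1a Ahr KO replicate 3 (0.0460) or Hif1a Ahr flox replicate 2 (0.0289).

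The differences between the deletions were tested as contrasts of the KO effects, each taken within its line. The Hif1a KO effect minus the Ahr KO effect was called for 4 of 10 members, all higher, against 16.6% of all genes: Nqo1 (4.77 ± 0.38; adjusted p = 7.32e-08), Hic1 (4.18 ± 0.62; 2.16e-04), Ahrr (3.25 ± 0.63; 0.00148) and Asb2 (2.72 ± 0.43; 3.16e-04). With pairs Tiparp (0.89; adjusted p = 0.00515) and Cyp1a1 (1.77; 0.0405) were called as well. Selenbp1, at -0.61, was called lower by DESeq2 (0.0363), with only the 12 libraries of both lines (0.0219) and without Hif1a KO replicate 2 (0.0258), but not by edgeR over all libraries (0.0722). Scin fell in both single KO groups, by 1.31 and 1.59.

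The effect of both deletions was set against that of each single one. The Hif1a Ahr KO effect minus the Ahr KO effect was called higher for Nqo1 (2.40 ± 0.39; adjusted p = 3.16e-04), against 8.6% of all genes, and lower for Selenbp1 (-2.59 ± 0.26; 6.78e-06), against 7.78%. For Ahrr that difference was 0.26 ± 0.63, for Asb2 0.07 ± 0.42 and for Hic1 0.84 ± 0.61, none called in the fit without replicate pairs; an interval of 2 SE around the Ahrr value still holds differences of more than 1 log2 unit. Scin was called lower without Hif1a Ahr KO replicate 1 (-1.19; adjusted p = 0.0225). The Hif1a Ahr KO effect minus the Hif1a KO effect was called lower for 5 of 10 members, against 5.12% of all genes. These were Hic1 (-3.34 ± 0.60; adjusted p = 0.00673), Ahrr (-2.99 ± 0.62; 0.0123), Asb2 (-2.65 ± 0.43; 0.00341), Nqo1 (-2.36 ± 0.34; 9.13e-04) and Selenbp1 (-1.98 ± 0.26; 7.34e-04). Tiparp was called lower in this contrast by DESeq2 (0.0159) and without Hif1a KO replicate 3 (0.0492) or Hif1a Ahr flox replicate 2 (0.0433), and Scin without Hif1a Ahr KO replicate 1 (-1.47, 0.0113). Ahr, at -0.76 ± 0.29, was not called by edgeR (adjusted p = 0.112) but was called lower by DESeq2 (0.0333).

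The Hif1a Ahr KO effect was also set against what the single KO effects add up to in log2 units. No member departed from the sum by edgeR or DESeq2, with 2 of 10 at an unadjusted p under 0.05; over all genes edgeR called 0.0358%. Those 2 were Selenbp1, at -3.38 against a sum of -2.20 (difference -1.19 ± 0.31; adjusted p = 0.529), and Ahr, at -0.26 against a sum of 0.77 (-1.03 ± 0.35; adjusted p = 0.736). For Nqo1 the effects of opposite sign, 2.83 in Hif1a KO and -1.93 in Ahr KO, added to 0.90, and 0.47 was measured with both deletions (difference -0.43 ± 0.47, with 2 SE reaching from -1.37 to 0.50). For Ahrr, Asb2, Hic1, Tiparp and Scin the difference lay between -0.46 and 0.58, with SE of 0.51 to 0.76, and the P450 genes had SE of at least 1.78. With intervals this wide, a departure from the sum by 1 log2 unit could not have been seen in most targets.

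**Figure D3:**
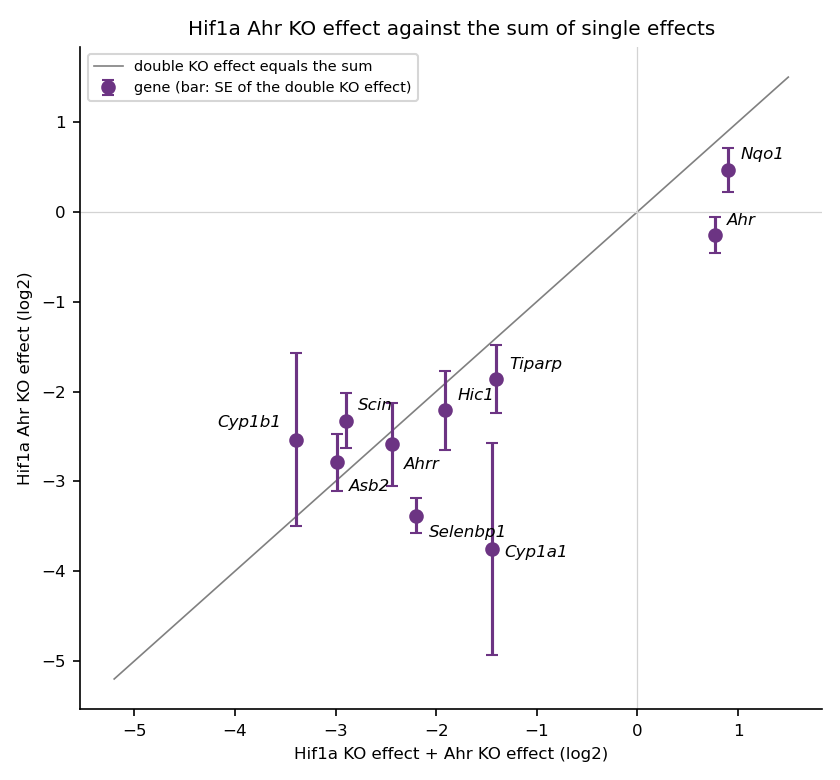
The log2 change measured in Hif1a Ahr KO cells (vertical axis) against the sum of the log2 changes in Hif1a KO and Ahr KO cells (horizontal axis) for the 10 members, with the line of equality and bars of 1 SE of the change in Hif1a Ahr KO cells. Ahr and Selenbp1 lay below the line, at differences of -1.03 and -1.19, and Nqo1 near it at -0.43.

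Ordered by level, the targets had different patterns over the 6 groups. Nqo1 was highest in Hif1a KO (5.70 ± 0.41 CPM, SD, n = 3), then in Hif1a Ahr KO (1.16 ± 0.06), then in the 3 flox groups, whose ranges overlapped each other (that of Hif1a Ahr flox also reached Hif1a Ahr KO), and lowest in Ahr KO (0.231 ± 0.038). Selenbp1 had overlapping flox groups at 54.7 to 62.1 CPM on average, below which Ahr KO (35.8 ± 1.6), Hif1a KO (20.7 ± 4.05) and Hif1a Ahr KO (5.32 ± 1.61) followed without overlap. Scin was high in the flox groups (327 to 425 CPM on average), lower in Ahr KO (141 ± 23) and Hif1a KO (132 ± 20.5), which overlapped, and lowest in Hif1a Ahr KO (68.1 ± 34.1). Asb2 was low in Hif1a Ahr KO (36.6 ± 16.4) and Ahr KO (35.7 ± 6.4) and at 117 CPM or more in every other library.

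Libraries within a group also differed in a way that most targets shared. Among the 9 targets, Ahr flox replicate 1 was the highest of its group for 8 and replicate 2 the lowest for 9. Ahr KO replicate 1 was likewise the highest for 8 and replicate 2 the lowest for 8. In the Hif1a line replicate 2 was the highest for 8 targets among the KO libraries and for 8 among the flox libraries. In the Hif1a Ahr line replicate 2 was the lowest for 8 in each. Over the 18 libraries, deviations from the group mean of log2(CPM + 0.1) correlated with those of Ahrr at r = 0.96 for Hic1, 0.95 for Tiparp, 0.93 for Asb2, 0.86 for Scin and 0.83 for Cyp1b1. For Ahr itself r was 0.74, for Cyp1a1 0.66, for Selenbp1 0.58 and for Nqo1 0.42. These are descriptions over libraries that share groups and, in the Hif1a and Ahr lines, replicate numbers; the labels do not say what a number marks.

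**Figure D4:**
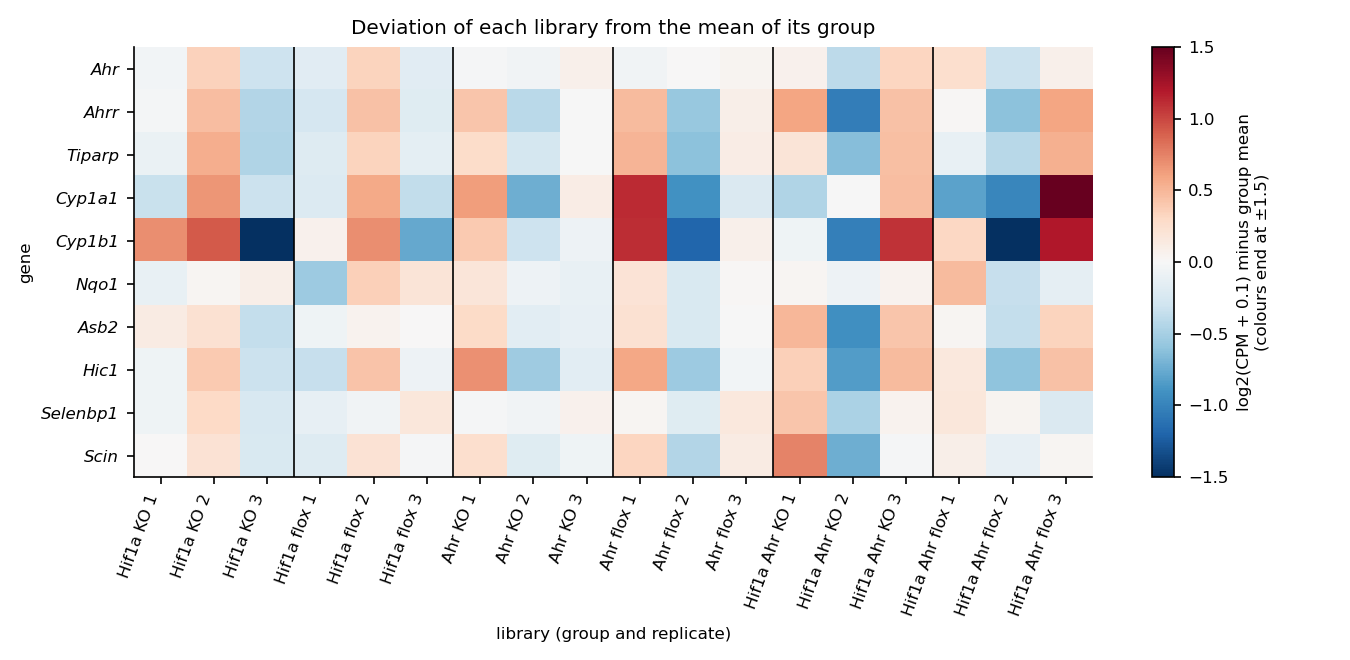
Heat map of the deviation of each library from its group mean, in log2(CPM + 0.1), with the 10 members as lines of cells and the 18 libraries as columns, each KO group left of its flox group; the colour scale ends at ±1.5. The second libraries of the Ahr line lay low and those of the Hif1a line high for 8 or 9 of the 9 targets.

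Markers of related cells moved in some of the same comparisons. Summed over 6 markers of type 1 innate lymphoid cells (ILC1) and tissue residency, libraries held 178 to 297 CPM in Hif1a KO against 356 to 409 in Hif1a flox, and 95.1 to 211 in Hif1a Ahr KO against 344 to 424 in Hif1a Ahr flox. In Ahr KO the sum was 432 to 468 against 455 to 488 CPM in Ahr flox. All 6 markers were above 0 in at least 1 library of each group. In Hif1a KO cells Itga1 was called lower (-1.88 ± 0.19, adjusted p = 4.02e-06) and Tnfsf10 higher (0.99 ± 0.29, 0.0158). The other 4 were not called, and the median log2 change of the list was 0.03. The 11 T cell markers summed to 403 to 425 CPM in Hif1a KO against 499 to 551 in Hif1a flox, 466 to 498 in Ahr KO against 527 to 555 in Ahr flox, and 433 to 460 in Hif1a Ahr KO against 534 to 578 in Hif1a Ahr flox. These genes did not all move alike. In Hif1a KO cells edgeR called 4 of 11 lower (median log2 change -0.27), against 17.8% of all genes. In Ahr KO cells it called 2 lower, against 4.78%, while the median was 0.715. In Hif1a Ahr KO cells it called 2 lower and 1 higher (median 0.00), against 16.5% and 14.8%. Neither edgeR nor DESeq2 called any higher in Hif1a KO or Ahr KO cells (0 at an unadjusted p under 0.05). The sum of 5 macrophage and monocyte markers was 51.8 to 55.7 CPM in Hif1a KO against 34.2 to 42.9 in Hif1a flox, 24.1 to 30.2 in Ahr KO against 31.4 to 55.4 in Ahr flox, and 38.3 to 47.6 in Hif1a Ahr KO against 38.6 to 46.2 in Hif1a Ahr flox. Its members went apart in Hif1a KO cells, where Cd68 was called higher (0.75 ± 0.20; adjusted p = 0.00841) and Csf1r (-3.24 ± 0.72; 0.00274), Lyz2 (-3.26 ± 0.84; 0.00604) and Cd14 (-1.89 ± 0.42; 0.00231) lower. Cd68 was called lower in Ahr KO cells (-1.04 ± 0.20; adjusted p = 0.0063), and Csf1r and Lyz2 lower in Hif1a Ahr KO cells. The 5 neutrophil markers summed to 0 to 0.0853 CPM in Hif1a KO against 1.03 to 4.74 in Hif1a flox, 0.348 to 1.28 in Ahr KO against 0.346 to 1.44 in Ahr flox, and 0 to 0.197 in Hif1a Ahr KO against 0.837 to 4.76 in Hif1a Ahr flox. Of 4 neutrophil markers tested, edgeR called 3 lower in Hif1a KO and 4 lower in Hif1a Ahr KO cells, against 17.8% and 16.5% of all genes. Elane was at 0 in all 6 of those KO libraries. Neither edgeR nor DESeq2 called any of the 4 in Ahr KO cells (0 at an unadjusted p under 0.05). Markers of ILC2 and ILC3 never passed 2.47 CPM and those of B cells never 1.18 CPM. At these low levels, the ILC2 and ILC3 sum was 1.40 to 2.47 CPM in Hif1a Ahr KO against 0.765 to 1.32 in Hif1a Ahr flox. The B cell sum was 0.232 to 0.451 CPM in Ahr KO against 0.513 to 1.18 in Ahr flox. It was 0.143 to 0.301 in Hif1a Ahr KO against 0.694 to 0.928 in Hif1a Ahr flox. Both sums overlapped with their flox group in the remaining comparisons. Stroma and endothelium markers summed to 220 to 249 CPM in Hif1a KO against 298 to 327 in Hif1a flox, 286 to 342 in Ahr KO against 252 to 279 in Ahr flox, and 226 to 284 in Hif1a Ahr KO against 251 to 317 in Hif1a Ahr flox. The mitochondrial share of counts was 3.20% to 3.49% in Hif1a KO and 3.57% to 4.37% in Hif1a Ahr KO and 2.14% to 2.65% in Ahr KO, against 1.80% to 2.28% over the 9 flox libraries. The part of these shifts in the target levels was not tested, and in bulk RNA fewer cells of a type and less RNA per cell cannot be told apart.

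The receptor's chaperones, partners and coactivators came from a list of 11. Of these 1 was called higher in Ahr KO cells, the coactivator Ncoa1 (0.33 ± 0.095, adjusted p = 0.0396), against 2.13% of all genes. None was called lower by either tool (3 at an unadjusted p under 0.05), against 4.78% of all genes by edgeR. The Ncoa1 call was lost without any 1 of the 6 libraries of the line (adjusted p = 0.0552 to 0.176). In Hif1a KO cells 3 of the 11 rose and 1 fell (median 0.13), where 17.6% of all genes rose and 17.8% fell, so the list's share lay near that of all genes. Arnt, the shared partner, rose by 0.44 ± 0.07 (adjusted p = 6.01e-05), while its relative Arnt2 stood at 4.79 ± 2.06 CPM in Hif1a KO against 38.4 ± 4.7 in Hif1a flox cells (SD, n = 3; log2 change -3.00 ± 0.31; adjusted p = 7.82e-06). The other rises were in Bmal1 (0.33; adjusted p = 0.0166) and Ncoa2 (0.26; 0.0159). The Bmal1 call was lost without Hif1a KO replicate 2 (0.0686) or Hif1a flox replicate 3 (0.0868), and the Ncoa2 call without Hif1a KO replicate 2 (0.0548) or 3 (0.0534) or Hif1a flox replicate 1 (0.0635). In Hif1a Ahr KO cells 2 rose and 2 fell, where 14.8% of all genes rose and 16.5% fell, with Ncoa1 at 0.46 ± 0.09 (adjusted p = 0.00115) and Arnt2 at 9.75 ± 4.03 CPM in Hif1a Ahr KO against 43.1 ± 2.8 in Hif1a Ahr flox cells.

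Further genes known as AhR targets in other cells were read beside the members. Of 24 listed, 16 were tested. In Ahr KO cells 5 fell and 0 rose by edgeR (7 and 0 by DESeq2, 1 with a rise at an unadjusted p under 0.05), where 4.78% of all genes fell, with a median of -0.85. The stem cell factor receptor gene Kit stood at 76.2 ± 15.4 CPM in Ahr KO against 276 ± 73 in Ahr flox cells (-1.86 ± 0.22; adjusted p = 1.88e-04). The transcription factor gene Maf (-1.06 ± 0.145; 2.25e-04), the glucuronosyltransferase gene Ugt1a7c (-1.13; 0.00222) and xanthine dehydrogenase Xdh (-0.71 ± 0.13; 0.0031) fell too. Nfe2l2 fell by 0.50 ± 0.12 (adjusted p = 0.0170), a call lost without Ahr KO replicate 2 (0.102) or 3 (0.0541) or Ahr flox replicate 1 (0.121) and with only the 6 libraries of the line (0.0526). In Hif1a KO cells 7 of the 16 rose and 3 fell (median 0.48; 17.6% and 17.8% of all genes), among them Nfe2l2 (1.29 ± 0.12; adjusted p = 2.59e-07), and the ectonucleotidase gene Entpd1 fell by 1.47 ± 0.19 (3.24e-05). Ugt1a7c (2.19 ± 0.18, adjusted p = 2.72e-07) and Kit (0.99 ± 0.21, 0.00222), which fell in Ahr KO cells, were among those that rose. In Hif1a Ahr KO cells 4 rose and 5 fell (median 0.10; 14.8% and 16.5% of all genes), with Kit at -1.21 ± 0.215 (adjusted p = 6.44e-04), Maf at -0.79 ± 0.14 and Xdh at -0.73 ± 0.13. Ugt1a7c was called higher there, at 2.46. Ugt1a6a stood at 13.7 ± 4.1 CPM in Hif1a KO against 1.21 ± 0.36 in Hif1a flox, and at 20.2 ± 2.1 CPM in Hif1a Ahr KO against 0.948 ± 0.938 in Hif1a Ahr flox cells; the Ugt1a genes share exons, and how counts divide between them is uncertain.

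Since Nqo1 is a target of NRF2 as well, NRF2 targets and regulators were set beside it. Of 14 tested genes 5 rose and 3 fell in Hif1a KO cells (median 0.19; 17.6% and 17.8% of all genes), and 7 rose and 3 fell in Hif1a Ahr KO cells (median 0.19; 14.8% and 16.5% of all genes). Only Nfe2l2 fell in Ahr KO cells (1 of 14, against 4.78% of all genes), and 0 rose by edgeR or DESeq2 (2 at an unadjusted p under 0.05). Gclm, a subunit of the enzyme that starts glutathione synthesis, rose by 1.21 ± 0.11 in Hif1a KO (adjusted p = 1.42e-07) and 1.14 ± 0.11 in Hif1a Ahr KO cells (2.90e-07). The thioredoxin reductase gene Txnrd1 rose by 0.69 ± 0.06 (1.39e-07) and 0.47 ± 0.06 (1.25e-05) in the same groups. Keap1, which encodes the inhibitor of NRF2, fell by 0.26 ± 0.07 (adjusted p = 0.0066) and 0.44 ± 0.07 (8.31e-05). Me1 (-1.85 ± 0.40, adjusted p = 0.00137) and Mafg (-0.29 ± 0.07, 0.00379) fell in Hif1a KO cells too. Hmox1 (-0.37 ± 0.21, adjusted p = 0.193) and Osgin1 (-0.35 ± 0.20, 0.199) were not called there. Osgin1 was called lower in Hif1a Ahr KO cells, at -1.45. In Ahr KO cells Gclm changed by 0.06 ± 0.11 (adjusted p = 0.842) and Txnrd1 by -0.12 ± 0.06 (adjusted p = 0.261).

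Genes of ligand supply were few. Ido1, Ido2, Tdo2, Kynu and Aadat, enzymes of the tryptophan and kynurenine pathway, did not pass the filter on counts, and 7 of 12 listed genes were tested. None was called in Ahr KO cells by edgeR or DESeq2, with 1 at an unadjusted p under 0.05. Slc7a5, which encodes a transporter that carries tryptophan and kynurenine, rose by 1.58 ± 0.22 in Hif1a Ahr KO cells (adjusted p = 7.83e-05), with its partner chain Slc3a2 at 0.74 ± 0.17 (0.00443). In Hif1a KO cells Slc7a5 rose by 0.74 ± 0.215 (adjusted p = 0.0152), a call lost without Hif1a KO replicate 3 (0.0743) or Hif1a flox replicate 1 (0.053) or 2 (0.0641) and with no filter on low counts (0.0503). Kmo, kynurenine monooxygenase, rose by 1.79 ± 0.47 in Hif1a KO cells (adjusted p = 0.00588). In Hif1a Ahr KO cells Afmid (-0.32) and Kyat3 (-0.54), 2 other enzymes of that pathway, fell; the Afmid value was -0.21 without Hif1a Ahr flox replicate 1, and the Kyat3 call was lost without Hif1a Ahr KO replicate 2 (0.0511). With only the 6 libraries of the line both calls were lost (0.0647 and 0.0516).

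Across the 18 libraries, the genes whose log2 CPM followed a member most closely were as follows, by Pearson's r among genes of at least 1 CPM on average. For Ahrr they were Cd160 (0.98), Zcchc24 (0.98) and Susd3 (0.98). For Hic1 they were Kit (0.98), Zcchc24 (0.98) and Itsn1 (0.97). For Asb2 they were Rasgrp4 (0.98), Zmat4 (0.98) and Pltp (0.97), and for Tiparp Snx18 (0.97), Aebp1 (0.96) and Fgr (0.94). For Scin they were Klk8 (0.97), Unc5b (0.97) and Sh3gl1 (0.97), and for Selenbp1 Apol7e (0.99), Xylt2 (0.98) and Appl2 (0.98). Nqo1 was followed by Sntb1 (0.98), Umad1 (0.97) and Galnt2 (0.97). Correlations were lower for Ahr, led by Heatr5a (0.86), Emilin1 (0.82) and Zdhhc14 (0.82), for Cyp1b1, led by Susd2 (0.90), Ltbr (0.88) and Fam213b (0.86), and for Cyp1a1, led by Poll (0.89), Atg101 (0.88) and Smad5 (0.88). The values include the differences between groups and are descriptions.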

How the data were processed

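RNA was sequenced from cultured splenic NK cells in 18 libraries, 3 in each of 6 groups. Per the submitters' processing notes, Trim Galore 0.6.4, kallisto 0.4.6, edgeR 3.17 and GRCm39 were used; settings and annotation are not given in the sources used here. The deposited count tables hold expected counts per gene, estimated and not normalised, of which 65.5% to 67.8% of the values above 0 are not whole. The deposited log2 values are log2 CPM with a prior count of 2 and were recomputed from the counts to within 7.1e-15. The likeness between genes used log2 CPM computed anew from the rounded counts, with TMM scaling and a prior count of 2. Symbols matched 52029 of 56953 identifiers; chromosomes came from GENCODE M21 (GRCm38).

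From the counts, rounded to whole numbers, edgeR 4.0.16 (R 4.3.3) was run with TMM, filterByExpr by group (16743 genes), 1 mean per group over 18 libraries and robust quasi-likelihood F tests, 2-sided, with Benjamini-Hochberg adjustment over all genes in each comparison; it was tested on simulated data. SE is the log2 change over the square root of F. Residual degrees of freedom were 12, and replicates varied 16.3 to 68.1 times more than counting error (chi-square per degree of freedom), so replicate spread limits the precision. P-values weigh a difference between group means against the spread between these libraries. Alternatives were DESeq2 1.42.0, RLE scaling, no filter, unrounded counts, fewer groups, replicate blocks and leaving out each library.

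Replicate numbers were taken as pairs where every same-numbered KO and flox pair deviated together (correlation above 0.1 over 9987 genes of at least 5 CPM). This held in the Hif1a (0.30 to 0.53) and Ahr lines (0.33 to 0.53) and failed in the Hif1a Ahr line (0.07 to 0.45). Between flox groups it held for Hif1a Ahr and Ahr flox (0.19 to 0.42). The pairing comes from the data, not from the labels.

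Members and gene lists were chosen with earlier results of these data known. Named are all members; Hif1a and Ncr1 as checks; up to 4 called genes of each list by adjusted p, with uncalled ones where stated; and the 3 genes most like each member.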

Additional observations from a re-analysis of the deposited data

Results flagged for a closer look

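The effects of the deletions on single members differed by edgeR's test of the difference itself in 11 cases, each a contrast of KO against flox changes on the log2 scale. The contrasts share libraries and are not independent of each other.

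Between Hif1a KO and Ahr KO cells the changes differed for Nqo1 by 4.77 (adjusted p = 7.32e-08), with 2.83 in Hif1a KO and -1.93 in Ahr KO cells. Hic1 differed by 4.18 (2.16e-04), Ahrr by 3.25 (0.00148) and Asb2 by 2.72 (3.16e-04).

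Between Hif1a Ahr KO and Hif1a KO cells the changes differed for Hic1 by -3.34 (adjusted p = 0.00673), for Ahrr by -2.99 (0.0123), for Asb2 by -2.65 (0.00341), for Nqo1 by -2.36 (9.13e-04) and for Selenbp1 by -1.98 (7.34e-04).

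Between Hif1a Ahr KO and Ahr KO cells the change of Nqo1 differed by 2.40 (adjusted p = 3.16e-04), at 0.47 in Hif1a Ahr KO and -1.93 in Ahr KO cells. Selenbp1 differed by -2.59 (6.78e-06), at -3.38 in Hif1a Ahr KO and -0.80 in Ahr KO cells.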

How the results depend on the processing

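No direction of a called member change turned under any alternative. With the replicate block, members called higher numbered 3 in Hif1a KO and 1 in Ahr KO cells, and all genes called in Ahr KO cells 2421 in place of 1157. The block called 9 members lower for Hif1a Ahr KO minus Hif1a KO effects (5 without it), 2 higher and 4 lower for Hif1a Ahr KO minus Ahr KO effects (adding Hic1 at 0.82, adjusted p = 0.00131, as higher and Ahr, 0.0034, Tiparp, 0.0225, and Cyp1a1, 0.0408, as lower), and 1 lower against the sum of single effects (Ahr, -1.03; adjusted p = 0.00838). Over all genes it called 3158 for Hif1a Ahr KO minus Hif1a KO and 35 against the sum. In the Hif1a Ahr line, whose numbers failed as pairs, it called Ahr (-0.27; 0.0163) and Cyp1b1 (-2.59; 2.99e-04) lower. It turned the uncalled Asb2 difference of Hif1a Ahr KO minus Ahr KO effects to -0.02. It changed no other call of the members in the 3 KO comparisons than those named here or above.

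With DESeq2, 3 members were called higher in Hif1a KO cells, 1 lower for Hif1a KO minus Ahr KO effects and 1 higher in Hif1a Ahr flox against Hif1a flox cells. It called 7 members lower for Hif1a Ahr KO minus Hif1a KO effects (edgeR 5). Over all genes it called 21 against the sum (edgeR 6), 83 for Hif1a flox against Ahr flox (42), 73 for Hif1a Ahr flox against Ahr flox (31) and 24 for Hif1a Ahr flox against Hif1a flox (4). RLE scaling called 2 members higher in Hif1a KO cells. With no filter, 10 genes were called against the sum and 8 for Hif1a Ahr flox against Hif1a flox. With only the libraries of the groups compared, members called higher were 2 in Hif1a KO and 1 in Ahr KO cells, and 1 was lower for Hif1a KO minus Ahr KO effects. All genes called were then 3104 in Hif1a Ahr KO cells (5242 over 18 libraries), 978 for Hif1a Ahr KO minus Hif1a KO effects (1615) and 2 for Hif1a Ahr flox against Hif1a flox. The sum of effects uses all groups and has no such alternative.

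Leaving out 1 library at a time, members called higher ran from 1 to 3 and all genes from 4785 to 5438 in Hif1a KO cells. In Ahr KO cells 5 to 7 members were lower and 467 to 1337 genes called (760, 534 and 679 without Ahr KO replicates 1, 2 and 3; 467 and 558 without Ahr flox replicates 1 and 3). In Hif1a Ahr KO cells 0 to 1 members were higher, 6 to 8 lower, and 3796 to 5527 genes called. Members called lower were 0 to 1 for Hif1a KO minus Ahr KO, 5 to 6 for Hif1a Ahr KO minus Hif1a KO (751 to 2396 genes, at most 874 without Hif1a KO replicate 2, Hif1a flox replicate 1 or 3, Hif1a Ahr KO replicate 2 or Hif1a Ahr flox replicate 1), and 1 to 2 for Hif1a Ahr KO minus Ahr KO effects. All genes called were 5 to 14 against the sum, 24 to 31 for Hif1a flox against Ahr flox (0 to 1 members), 22 to 36 for Hif1a Ahr flox against Ahr flox, and 3 to 10 for Hif1a Ahr flox against Hif1a flox.

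Uncalled changes near 0 took either sign without 1 library: Cyp1a1 (-0.651 to 0.914) and Asb2 (-0.245 to 0.023) in Hif1a KO cells, and Asb2 (-0.209 to 0.130) in Hif1a Ahr flox against Ahr flox cells. So did, for Hif1a Ahr KO minus Ahr KO effects, Ahrr (-0.022 to 0.622), Asb2 (-0.159 to 0.4) and Cyp1b1 (-1.209 to 0.650). The cause was not tested. The Cyp1a1 and Cyp1b1 values rest on at most 158 estimated counts a library and spread widely between libraries of a group.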

Other observations

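Relatives of the members by family were also read. Of 8 listed, 6 were tested; Cyp1a2 and Selenbp2 had too few counts. Gsn, which encodes gelsolin, an actin-severing relative of scinderin, fell in Hif1a KO (-1.33 ± 0.31; edgeR adjusted p = 0.0047) and Hif1a Ahr KO cells (-2.04 ± 0.32; 3.26e-04), as Scin did. The capping protein gene Capg of the same family fell in both (-0.68 ± 0.10 and -0.70 ± 0.10). In Ahr KO cells neither was called, with Gsn at -0.47 ± 0.31 (adjusted p = 0.445) and Capg at -0.02 ± 0.10 (adjusted p = 0.950). Nqo2, the relative of Nqo1, rose by 0.31 ± 0.09 in Hif1a KO (0.00971; 0.0667 without Hif1a KO replicate 3) and 0.35 ± 0.09 in Hif1a Ahr KO cells (0.00461). Parp12, an ADP-ribosyltransferase like Tiparp, rose in Hif1a KO (0.96 ± 0.21; 0.00178) and fell in Ahr KO cells (-1.17 ± 0.22; 0.0035). Ncr1, the gene that drives Cre, rose in all 3 KO groups, by 0.92 ± 0.105 in Hif1a KO, 0.97 ± 0.105 in Ahr KO and 1.06 ± 0.105 in Hif1a Ahr KO cells.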
